A study of Homo sapiens with 6 samples.

Results

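The genes described here lie side by side on the short arm of human chromosome 3, in the stretch around band 3p21 that runs along the gene order from ZDHHC3 to UCN2 and from P4HTM to MANF. The list named 59 genes of the 19775 genes measured in the series, and 54 of the 59 had at least 1 probe set annotated to that gene alone. DAG1, GMPPB, UBA7, HYAL1 and TUSC2 had none. The list was drawn up from the same contrast that is reported below, since neighbouring genes of this stretch had come out lower in PC9/gef, so every difference between the lines at these genes is a description and carries no test.

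RNA was compared between 2 human lung adenocarcinoma cell lines. PC9/gef is a line with acquired gefitinib resistance that had been selected from PC9 by continuous exposure to rising concentrations of gefitinib, an inhibitor of the EGFR tyrosine kinase. PC9 is the gefitinib-sensitive parent. Both were grown in RPMI-1640 with fetal bovine serum, and total RNA of 3 samples per line, named biological replicates by the labels, was hybridised to 1 Affymetrix array each. PC9/gef is a single selected line, so the effect of resistance and the history of that line cannot be told apart, and the number of arrays limits the precision. In bulk RNA, fewer cells carrying a transcript and less of it per cell cannot be told apart either. DNA copy number was not analysed here.

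Band 3p21 is one of the chromosome segments most often lost in lung cancer, and its best known part holds a dense cluster of candidate tumour suppressors. The cluster includes RASSF1, a scaffold that binds the Hippo kinases and microtubules, the secreted guidance proteins SEMA3B and SEMA3F, the hyaluronidase genes HYAL1, HYAL2 and HYAL3, TUSC2, and NPRL2, a subunit of the GATOR1 complex that restrains mTORC1 when amino acids are short. Further along the same band lie SETD2, which writes histone H3 lysine 36 trimethylation, SMARCC1, a core subunit of the SWI/SNF chromatin remodeller, LIMD1, PTPN23 and RHOA. Losses of this arm can remove many such genes at once, whatever their separate functions.

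The transcription start regions of the listed genes are described next. RefSeq (assembly GRCh38.p14) lists 78 start regions for 54 of the 59 genes, each reaching 250 bases before the start and 50 bases after it. LIMD1, UBA7, IMPDH2, SMARCC1 and CCDC71 were not matched. A GC box, GGGCGG on either strand (CCGCCC on the other), occurred in 56 of the 78 regions (71.8%), against 45.0% of all 35116 regions in the table. The ETS core, searched as CCGGAA on both strands, occurred in 27 of the 78 (34.6%), against 17.2% of all. The TATA box letters TATAAA (or TTTATA) occurred in 4 of the 78 (5.13%), against 11.5% of all, and the STAT motif TTCNNNGAA, which reads the same on both strands, in 3 of the 78 (3.85%), against 7.66%. The median number of CG dinucleotides was 27 in the regions of the 3p21 genes and 14 in all regions. The listed genes thus had mostly GC-rich, TATA-free start regions. The 35116 regions were not restricted to genes expressed in these lines, and neighbouring stretches were not counted. The shares are therefore not shown to be particular to the list. These are letter matches in a window, counted with overlap, and are neither binding sites nor a cause of any level.

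The start regions of 5 genes are shown, those at the ends of the range of differences, the best known suppressor of the cluster and the region with most STAT matches. SEMA3F had the lowest difference and LZTFL1 the next, FYCO1 had the highest, RASSF1 is the suppressor, and CISH is a classical target of STAT5 signalling. In the first 4 sequences capitals mark GC boxes on either strand, and in CISH they mark the STAT motif. The positions are chr3:50154808-50155107 on the plus strand for SEMA3F, and on the minus strand chr3:45842070-45842369 for LZTFL1, chr3:45995775-45996074 for FYCO1, chr3:50337401-50337700 for RASSF1 and chr3:50611725-50612024 for CISH.
SEMA3F: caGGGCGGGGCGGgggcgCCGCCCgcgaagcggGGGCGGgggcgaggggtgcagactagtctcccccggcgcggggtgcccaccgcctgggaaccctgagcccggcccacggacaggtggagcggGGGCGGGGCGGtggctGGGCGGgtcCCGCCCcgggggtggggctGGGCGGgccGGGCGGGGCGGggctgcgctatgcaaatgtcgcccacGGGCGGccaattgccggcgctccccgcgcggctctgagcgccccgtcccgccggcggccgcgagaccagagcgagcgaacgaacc
LZTFL1: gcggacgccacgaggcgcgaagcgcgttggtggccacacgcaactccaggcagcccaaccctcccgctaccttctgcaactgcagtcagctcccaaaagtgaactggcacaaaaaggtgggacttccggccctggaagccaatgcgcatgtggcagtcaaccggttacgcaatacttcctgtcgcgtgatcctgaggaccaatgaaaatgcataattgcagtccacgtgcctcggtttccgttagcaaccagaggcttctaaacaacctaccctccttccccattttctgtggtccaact
FYCO1: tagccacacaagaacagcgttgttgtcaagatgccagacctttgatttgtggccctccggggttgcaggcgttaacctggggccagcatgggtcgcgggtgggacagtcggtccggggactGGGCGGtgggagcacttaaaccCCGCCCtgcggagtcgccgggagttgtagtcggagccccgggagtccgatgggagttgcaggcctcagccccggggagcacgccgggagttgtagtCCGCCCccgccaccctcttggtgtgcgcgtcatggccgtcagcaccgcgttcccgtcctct
RASSF1: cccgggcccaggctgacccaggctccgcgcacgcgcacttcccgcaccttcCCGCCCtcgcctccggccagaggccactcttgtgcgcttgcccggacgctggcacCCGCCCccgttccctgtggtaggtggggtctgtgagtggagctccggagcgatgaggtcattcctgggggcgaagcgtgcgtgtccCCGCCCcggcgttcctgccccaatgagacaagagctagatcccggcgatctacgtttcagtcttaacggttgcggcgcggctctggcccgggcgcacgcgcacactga
CISH: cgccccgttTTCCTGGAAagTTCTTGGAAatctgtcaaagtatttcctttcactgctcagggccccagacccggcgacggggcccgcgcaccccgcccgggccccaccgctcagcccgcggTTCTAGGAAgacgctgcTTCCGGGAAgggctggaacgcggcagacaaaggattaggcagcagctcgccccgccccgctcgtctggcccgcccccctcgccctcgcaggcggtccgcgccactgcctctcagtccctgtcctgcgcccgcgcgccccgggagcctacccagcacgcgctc
The SEMA3F region held 12 GC boxes, the FYCO1 and RASSF1 regions 3 each, and the LZTFL1 region 0. RefSeq lists further start regions for 3 of these genes, which are not printed. They held 2 and 0 GC boxes in SEMA3F, 2 in LZTFL1 and 0 in FYCO1. The CISH region held 4 matches to the STAT motif, and the only other listed genes with a match were RNF123 and MAPKAPK3. The gene with the lowest difference and the gene with the highest difference both had GC boxes in the windows shown.

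Values are the deposited log2 signals, on which a step of 1 is a factor of 2, and where a gene had several probe sets the brightest on average across the 6 arrays was read. A gene was taken to be above background when its mean passed 2.61, the 95th percentile of 107 probe sets for olfactory receptors, taken here as a stand-in for silent genes. Probe sets differ in brightness, so levels are not compared between genes. Of the 54 measured 3p21 genes, 51 were above background and PLXNB1, SEMA3B and HYAL3 were not. Across the 51, the median difference (PC9/gef minus PC9) was −0.62, with quartiles of −0.74 and −0.25, so that the median gene in PC9/gef had 65.1% of its PC9 signal. The median over all 12081 genes above background was −0.0091.

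Below zero lay 49 of the 51 genes, and FYCO1 and CCRL2 were the 2 exceptions. In the limma fit over the whole table, adjusted p under 0.05 was reached by 37 of the 51 genes, all lower in PC9/gef, and by none in the other direction. Over all 19775 genes 13.5% were lower and 14.1% higher by that rule, and over the 12081 above background 21.5% were lower and 23.0% higher. The 3 PC9/gef arrays all lay below the 3 PC9 arrays for 45 genes, against 34.4% of all genes above background, and all above for FYCO1 only, against 30.8%. The lines overlapped at 5 genes. More than 1.5-fold lower in PC9/gef were 26 genes, against 6.53% of all, and more than 2-fold lower were SEMA3F, LZTFL1 and ZDHHC3, against 2.19%. Because the list was chosen on this contrast, nothing is read from how far these counts lie from the shares over all genes. Most of the 51 were lower by a moderate step, and 31 lay between 50 and 75% of their PC9 signal.

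The arrays of a line were alike. After the PC9 mean of each gene was taken away, the median of the 51 genes was −0.62, −0.55 and −0.49 on the 3 PC9/gef arrays, against 0.02, −0.0039 and −0.0098 on the 3 PC9 arrays. No single array carried the difference. Leaving out each array in turn kept the median between −0.62 and −0.57.

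**Figure D1:**
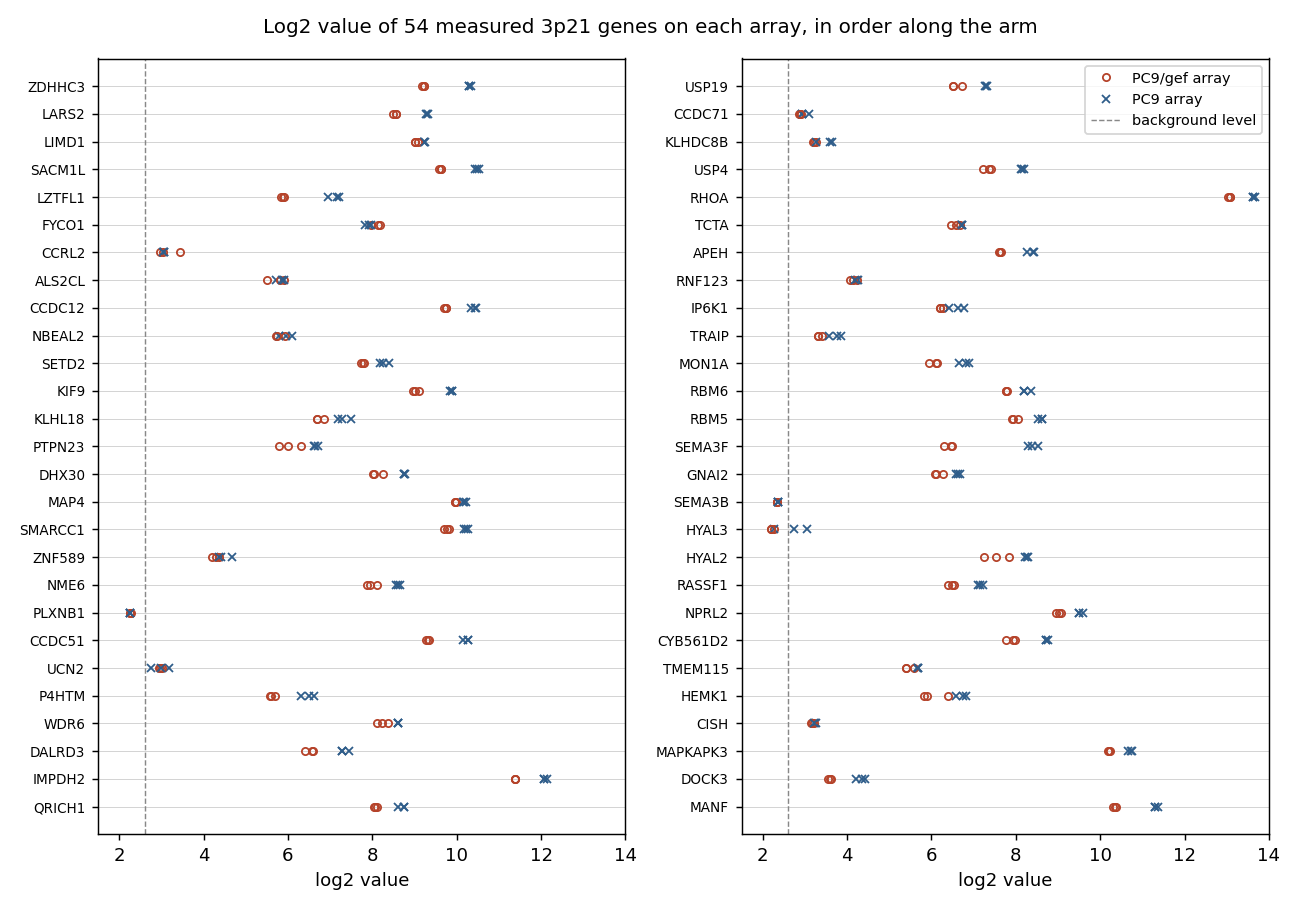
Log2 signal of the 54 measured 3p21 genes on each of the 3 PC9/gef arrays (open circles) and 3 PC9 arrays (crosses), in order along the arm from ZDHHC3 at the top left to MANF at the bottom right. The circles lie left of the crosses for most genes, and FYCO1 has them to the right. PLXNB1, SEMA3B, and the PC9/gef arrays and first PC9 array of HYAL3 lie left of the dashed background level of 2.61.

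The tumour suppressor cluster came first in size because of SEMA3F, which codes for a secreted class 3 semaphorin that signals through neuropilin 2 and plexins. SEMA3F had values of 6.29, 6.47 and 6.49 on the PC9/gef arrays, against 8.38, 8.52 and 8.28 on the PC9 arrays. That is a difference of −1.98 ± 0.088 (SE, n = 3 each), 3.94-fold lower in PC9/gef. A second SEMA3F probe set read 3.0, 3.55 and 3.26 in PC9/gef, against 3.98, 4.98 and 4.88 in PC9, a difference of −1.34. Both of these separated the lines with no overlap, and the third SEMA3F probe set was at background, at 2.20 on every array. Its relative SEMA3B was at background, at 2.35 on each PC9/gef array and 2.36 on each PC9 array. PLXNB1, the receptor of semaphorin 4D, was at background too, between 2.25 and 2.28 in PC9/gef and at 2.25 on each PC9 array.

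RASSF1 had 6.48, 6.53 and 6.39 in PC9/gef, against 7.10, 7.23 and 7.14 in PC9, a difference of −0.69 ± 0.055 that left 61.9% of the PC9 signal. NPRL2 had 8.96, 9.08 and 9.03 in PC9/gef, against 9.59, 9.5 and 9.49 in PC9, or −0.50 ± 0.045. The lines were apart at both genes. HYAL2, which codes for a hyaluronidase anchored at the cell surface, had 7.24, 7.53 and 7.84 in PC9/gef, against 8.27, 8.21 and 8.29 in PC9. The PC9/gef arrays were spread widely there, and the difference of −0.72 ± 0.17 had one of the largest standard errors in the list. HYAL2 kept its call only when the third PC9/gef array was the one left out, and lost it without any one of the other 5. HYAL3 read 2.26, 2.20 and 2.20 in PC9/gef, against 2.26, 2.74 and 3.06 in PC9. All 3 PC9/gef values were at background, and the mean of the PC9 arrays stood at least 1.06-fold above the background level.

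RBM5 and RBM6 are neighbouring genes for RNA-binding proteins that act on splicing. RBM5 had 7.94, 7.90 and 8.04 in PC9/gef, against 8.62, 8.62 and 8.53 in PC9, a difference of −0.63 ± 0.049. RBM6 had 7.80, 7.77 and 7.77 in PC9/gef, against 8.20, 8.35 and 8.20 in PC9, or −0.47 ± 0.049. The pair were thus both lower, with no overlap between the lines. GNAI2, an inhibitory G protein subunit, had 6.09, 6.11 and 6.27 in PC9/gef, against 6.68, 6.62 and 6.57 in PC9, or −0.47 ± 0.061. CYB561D2, a cytochrome b561 family protein of the cluster, had 7.76, 7.97 and 7.94 in PC9/gef, against 8.77, 8.72 and 8.71 in PC9, or −0.84 ± 0.065. TMEM115, a Golgi membrane protein, had the smallest difference among the listed cluster genes above background, with 5.39, 5.40 and 5.59 in PC9/gef, against 5.66, 5.69 and 5.67 in PC9. Its difference of −0.21 ± 0.065 did not pass the limma threshold. In all, the cluster had 9 listed genes above background, and their median was −0.63. Of these, 8 passed the threshold as lower, beside 21.5% of all genes above background. With the unlisted genes of the cluster, 11 were above background and 9 passed. The list was chosen on this contrast, so nothing is read from the counts.

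Several genes of the stretch act on chromatin or transcription. SETD2 had 7.79, 7.74 and 7.81 in PC9/gef, against 8.26, 8.19 and 8.39 in PC9, a difference of −0.50 ± 0.060. Its other probe sets above background differed by −0.71 and −0.25, the dimmer of them with overlap between the lines. SMARCC1 had 9.78, 9.71 and 9.82 in PC9/gef, against 10.22, 10.18 and 10.27 in PC9, or −0.46 ± 0.038. QRICH1, a transcriptional regulator of the unfolded protein response, differed by −0.64 ± 0.047, and its other probe set by −0.15. ZNF589, a zinc finger protein, differed by −0.20 ± 0.096, with the arrays apart but short of the threshold.

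Others act in signalling. RHOA, the small GTPase that drives actin stress fibres, had 13.04, 13.08 and 13.08 in PC9/gef, against 13.62, 13.61 and 13.66 in PC9. The difference of −0.57 ± 0.020 left 67.5% of the PC9 signal, and a second RHOA probe set differed by −0.85. LIMD1, a LIM-domain scaffold linked to Hippo signalling and to degradation of HIF1A, had 9.01, 9.0 and 9.09 in PC9/gef, against 9.22, 9.23 and 9.24 in PC9. That was one of the smaller differences past the threshold, −0.20 ± 0.028, and the other 4 LIMD1 probe sets were at background. The LIMD1 probe set read here is of the kind whose probes can match several transcripts. PTPN23, a partner of the ESCRT machinery in endosomal sorting of receptors, had 6.0, 5.79 and 6.31 in PC9/gef, against 6.62, 6.71 and 6.63 in PC9, or −0.62 ± 0.15, and it too lost its call without any of the 5 arrays other than the third of PC9/gef. MAPKAPK3, a kinase downstream of p38, differed by −0.52 ± 0.027. DOCK3, an activator of RAC1, was dim in both lines and differed by −0.74 ± 0.064.

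CISH, a feedback inhibitor of cytokine receptors, had 3.15, 3.22 and 3.17 in PC9/gef, against 3.26, 3.25 and 3.22 in PC9. The values nearly met, at a difference of −0.065 ± 0.021 that was not called. A further receptor gene and a ligand gene sat close to background. CCRL2, which binds chemerin, had 2.97, 3.44 and 3.03 in PC9/gef, against 3.07, 3.05 and 3.04 in PC9. UCN2, a ligand of the corticotropin-releasing hormone receptor CRHR2, had 2.95, 3.01 and 2.97 in PC9/gef, against 3.19, 2.75 and 3.0 in PC9. Both overlapped between the lines, with differences of 0.092 ± 0.14 and −0.0039 ± 0.12.

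Genes of membrane traffic and the secretory pathway included the lowest and the highest values outside the cluster. LZTFL1, which regulates transport of the BBSome in cilia, had 5.83, 5.89 and 5.91 in PC9/gef, against 7.21, 6.95 and 7.17 in PC9, a difference of −1.24 ± 0.079, 2.36-fold lower in PC9/gef. Its second probe set above background differed by −1.31. ZDHHC3, a Golgi palmitoyltransferase, had 9.17, 9.23 and 9.23 in PC9/gef, against 10.33, 10.28 and 10.28 in PC9, or −1.09 ± 0.025, 2.13-fold lower. Its other 3 probe sets differed by −1.10, −0.87 and −1.87. MANF, a secreted protein induced by endoplasmic reticulum stress, had 10.31, 10.38 and 10.36 in PC9/gef, against 11.38, 11.31 and 11.31 in PC9, or −0.98 ± 0.028. SACM1L, the phosphatase that removes phosphate from phosphatidylinositol 4-phosphate, had 9.62, 9.58 and 9.63 in PC9/gef, against 10.43, 10.49 and 10.54 in PC9, or −0.88 ± 0.033. The lines did not overlap at these 4 genes.

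FYCO1 went the other way. This adaptor, which links autophagosomes to microtubule motors, had 7.98, 8.13 and 8.17 in PC9/gef, against 7.83, 7.97 and 7.93 in PC9. The lowest PC9/gef array was barely above the highest PC9 array, and the difference of 0.18 ± 0.066 did not pass the threshold. MON1A, which activates RAB7 with CCZ1, differed by −0.73 ± 0.084. ALS2CL had 5.90, 5.81 and 5.50 in PC9/gef, against 5.71, 5.85 and 5.90 in PC9. NBEAL2, which is needed for platelet granules, had 5.71, 5.93 and 5.75 in PC9/gef, against 5.96, 5.79 and 6.09 in PC9. ALS2CL and NBEAL2 overlapped between the lines, at −0.083 ± 0.13 and −0.15 ± 0.10.

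Cytoskeletal genes were split by size. KIF9, a kinesin of motile cilia, had 8.96, 9.10 and 9.0 in PC9/gef, against 9.89, 9.85 and 9.88 in PC9, or −0.85 ± 0.041. All 3 KIF9 probe sets above background are of the kind whose probes can match related transcripts, and a dim KIF9 probe set without that mark was at background, with a difference of 0.058. MAP4, a microtubule stabiliser, had 9.98, 9.96 and 9.95 in PC9/gef, against 10.22, 10.16 and 10.17 in PC9. Its difference of −0.22 ± 0.019 was small, as were those of its other probe sets above background, which lay between −0.45 and −0.11.

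Ubiquitin genes made up a further group. USP4, a deubiquitinase, had 7.37, 7.42 and 7.23 in PC9/gef, against 8.20, 8.15 and 8.12 in PC9, a difference of −0.81 ± 0.060. USP19, an endoplasmic reticulum deubiquitinase, had 6.52, 6.72 and 6.50 in PC9/gef, against 7.31, 7.29 and 7.26 in PC9, or −0.70 ± 0.066. KLHL18, an adaptor of the CUL3 ligase, and TRAIP, a ligase of the replication machinery, differed by −0.57 ± 0.099 and −0.38 ± 0.085. RNF123, a ligase for the cell cycle inhibitor CDKN1B, had 4.07, 4.23 and 4.14 in PC9/gef, against 4.25, 4.24 and 4.19 in PC9. RNF123 alone of the 5 overlapped between the lines, at −0.078 ± 0.048.

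A further set acts in mitochondria or in RNA and protein synthesis. CCDC51, part of a mitochondrial potassium channel, had 9.31, 9.34 and 9.27 in PC9/gef, against 10.26, 10.26 and 10.16 in PC9, or −0.92 ± 0.038. LARS2, the mitochondrial leucyl-tRNA synthetase, differed by −0.75 ± 0.026, and both of its probe sets gave nearly the same value. NME6 differed by −0.64 ± 0.069, and DHX30, a helicase needed for the mitochondrial ribosome, by −0.65 ± 0.078. HEMK1, a methyltransferase for the mitochondrial release factor, had 5.82, 5.90 and 6.40 in PC9/gef, against 6.83, 6.57 and 6.75 in PC9. Its difference of −0.68 ± 0.19 did not pass the threshold, and 1 PC9/gef array stood well above the others of the line. DALRD3 had 6.40, 6.56 and 6.60 in PC9/gef, against 7.44, 7.27 and 7.29 in PC9, or −0.82 ± 0.078, while its other probe set above background differed by −0.30 with overlap between the lines. WDR6 differed by −0.38 ± 0.068. Both act in methylation of tRNA. CCDC12 differed by −0.67 ± 0.039.

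Enzymes of metabolism and a few other genes completed the list. P4HTM, a prolyl 4-hydroxylase of the endoplasmic reticulum membrane, had 5.70, 5.59 and 5.58 in PC9/gef, against 6.32, 6.51 and 6.62 in PC9, or −0.87 ± 0.092. IMPDH2, which sets the rate of guanine nucleotide synthesis, differed by −0.71 ± 0.029, and APEH, a peptidase that removes acetylated amino acids, by −0.75 ± 0.053. IP6K1, an inositol hexakisphosphate kinase, differed by −0.38 ± 0.098 and was not called. TCTA, KLHDC8B and CCDC71 differed by −0.15 ± 0.056, −0.29 ± 0.11 and −0.098 ± 0.054, with arrays apart and no call.

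Several genes had more than 1 probe set, and these are described here. The 54 genes had 120 probe sets of their own, of which 86 were above background and 84 of those 86 had a negative difference. Arrays were apart as lower for 71 and as higher for 1. Over all genes above background, each read from 1 probe set, 34.4% were apart as lower and 30.8% as higher. In the 21 genes with 2 or more probe sets above background, every one of those probe sets was negative. The 35 that had not been used to read a gene were all negative, with a median of −0.38, and 26 of them had arrays apart. They come from the same arrays, so they repeat the RNA and not the experiment. Their genes were chosen on this contrast, so the shared sign is a description and not a check.

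**Figure D2:**
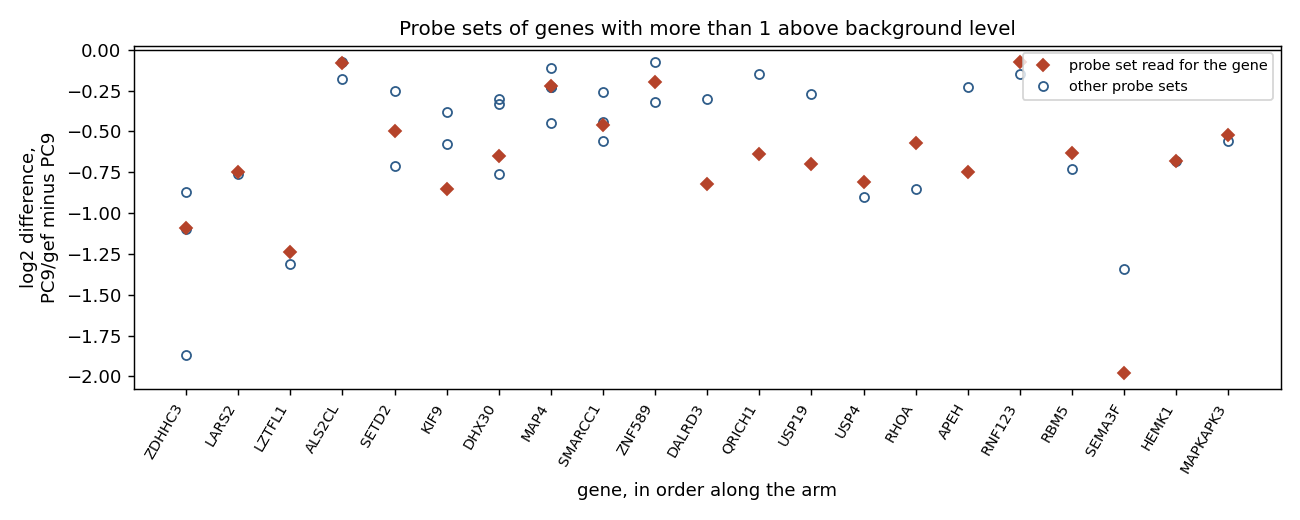
Log2 difference (PC9/gef minus PC9) of each probe set above background in the 21 genes of the 3p21 list that have more than 1, with the probe set read for the gene as a filled diamond and the others as open circles. All symbols lie below 0, and the circles of ZDHHC3 and SEMA3F reach −1.87 and −1.34.

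From ZDHHC3 to UCN2 the 21 genes above background had a median of −0.57, and 15 passed the threshold as lower. From P4HTM to MANF the 30 genes had a median of −0.63, and 22 passed. Over all genes above background 21.5% passed as lower, and the list was chosen on this contrast. Both genes above zero, FYCO1 and CCRL2, lay in the first of these runs.

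The list left out 61 measured genes between ZDHHC3 and MANF, 31 of them above background. Of those, 18 passed the threshold as lower and 0 as higher, beside 21.5% and 23.0% of all genes above background. Their median was −0.40. Whether a gene was put on the list followed from this contrast, so the 2 sets are not compared by a test. The 5 lowest were MST1R, a receptor tyrosine kinase for MSP, CDC25A, a cell cycle phosphatase, ELP6, a subunit of Elongator, GPX1, a glutathione peroxidase, and EXOSC7, a subunit of the RNA exosome, at −1.40, −1.10, −0.96, −0.94 and −0.93. MST1R had 4.79, 4.53 and 4.70 in PC9/gef, against 6.02, 6.19 and 6.01 in PC9. The 3 genes above zero were LTF, which codes for lactoferrin, at 1.03 ± 0.36, LRRC2 at 0.55 ± 0.25 and FBXW12 at 0.15 ± 0.051, and none passed the threshold. LTF had 3.70, 3.70 and 4.27 in PC9/gef, against 2.53, 3.52 and 2.53 in PC9, with a wide spread in PC9. PFKFB4 and CACNA2D2, next below zero, were near background at −0.024 and −0.021.

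Taken in map order, 77 of the 82 genes above background between the ends were negative, beside 6267 of all 12081 genes above background. The longest unbroken run of negative genes went from CCDC51 to MANF and held 52 genes, 32 of them on the list. A run from ALS2CL to NME6 held 17 genes, 12 of them listed, and one from ZDHHC3 to LZTFL1 held 8, with 5 listed. The runs count sign only and pass over genes at background. The longest thus includes values near 0, such as UCN2 at −0.0039 ± 0.12 and NICN1 at −0.03 ± 0.063. Since the list was chosen on this contrast, nothing is read from the length of the runs. The 7 genes above background between UCN2 and P4HTM, which the list skipped, were also all negative, with a median of −0.44. The ends of the list were not the ends of the lower signal. Among the 10 measured genes before ZDHHC3, 7 were above background, all negative, with a median of −0.48, and among the 10 after MANF, 4 were above background, all negative, with a median of −0.68. RBM15B, the first of those, differed by −0.41 ± 0.038, beside −0.98 for MANF.

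**Figure D3:**
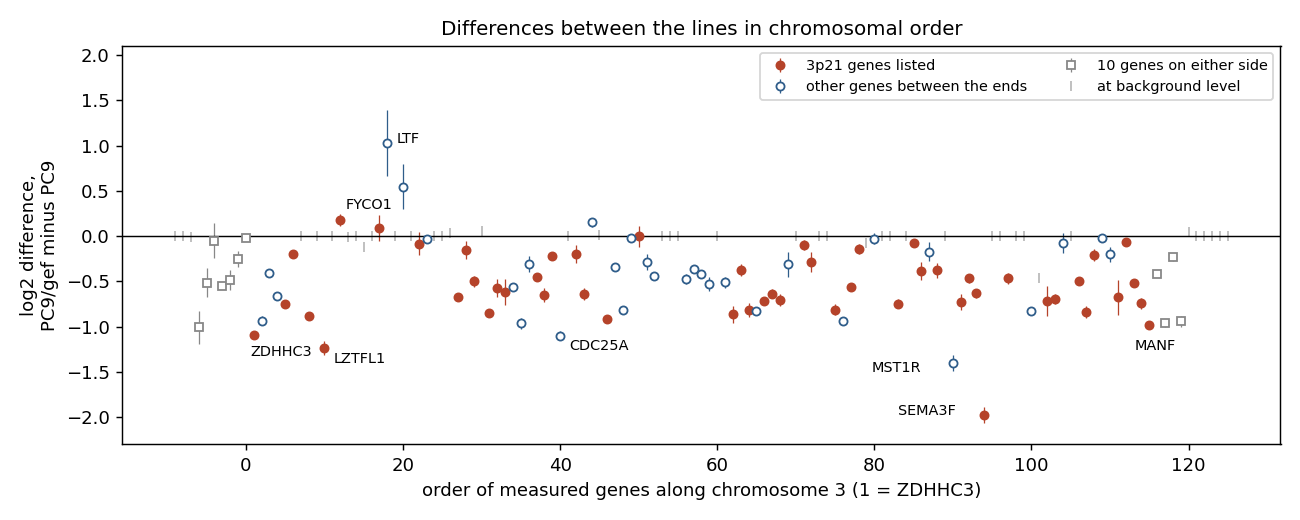
Log2 difference (PC9/gef minus PC9, bars are standard errors, n = 3 arrays per line) of genes above background in their order along chromosome 3, with the listed 3p21 genes filled, the other genes between ZDHHC3 and MANF as open circles and the 10 genes on either side as squares. Small ticks mark genes at background, 77 of the 82 circles lie below 0, and SEMA3F is the lowest at −1.98.

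Other stretches of the same chromosome looked alike. From TRNT1 to XYLB, nearer the tip of the arm, 115 genes above background had a median of −0.54, 83 passed the threshold as lower and 2 as higher. From TNNC1 to CEP97, across the centromere, 96 genes had a median of −0.57, with 71 lower and 5 higher. The remaining 407 genes of chromosome 3 had a median of 0.072, with 90 lower and 157 higher, and the 11368 genes of all other chromosomes had −0.0072, with 2302 lower and 2610 higher. The 3 stretches had been picked from these arrays, so their distance from the rest of the genome is a description, and no test sets 3p21 apart from the other pair.

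**Figure D4:**
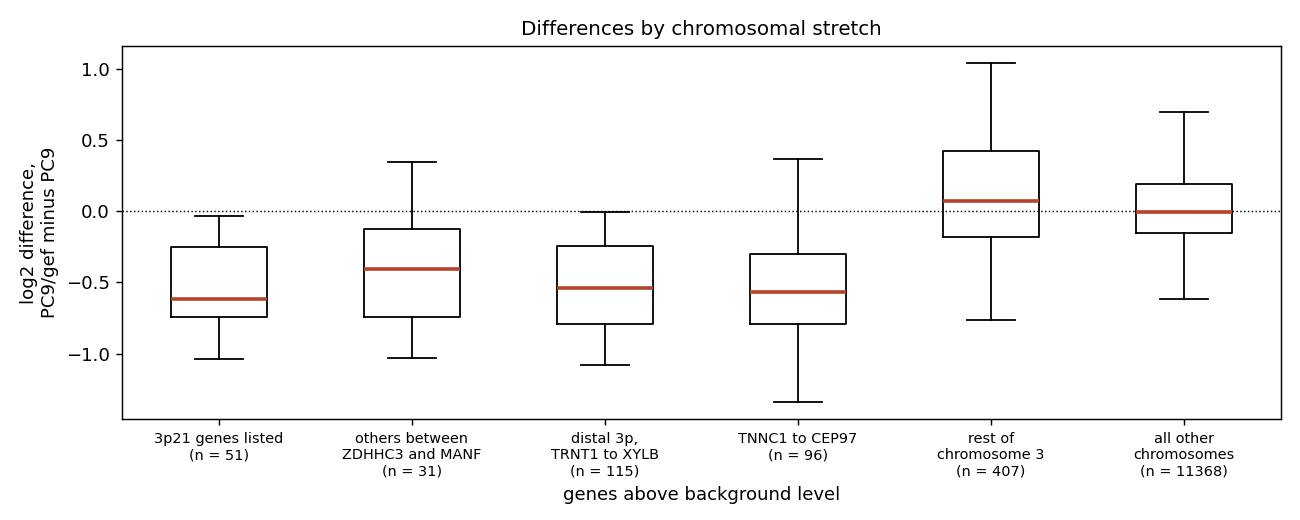
Log2 difference (PC9/gef minus PC9) of genes above background in 6 sets, with the median as a thick line, the quartiles as a box and the 5th and 95th percentiles as whiskers. The medians of the listed 3p21 genes, of the other genes between their ends and of the other pair of chromosome 3 stretches lie between −0.62 and −0.40, and those of the rest of chromosome 3 and of all other chromosomes lie at 0.072 and −0.0072.

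Of 16 tumour suppressor genes listed for the short arm as a whole, which include RASSF1, SETD2, LIMD1 and PTPN23, 12 were above background, 9 were lower and 1 was higher, beside 21.5% lower and 23.0% higher over all genes above background. Of the 9 lower genes, all but CTNNB1 lie in one of the 3 stretches picked on these arrays, so nothing is read from the count. PTPRG differed by −1.14 ± 0.043, ROBO1 by −0.70 ± 0.072, FOXP1 by −0.47 ± 0.069, PBRM1 by −0.36 ± 0.058 and CTNNB1 by −0.36 ± 0.028. TGFBR2, the type II receptor of TGF-beta, was higher, with 9.52, 9.55 and 9.47 in PC9/gef, against 9.02, 8.99 and 8.85 in PC9, or 0.56 ± 0.054. RARB and FHIT were at background.

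Genes that work with the 3p21 products but are encoded mostly elsewhere were chosen by function, not by position, and tested in the same limma fit. Of 104 partner genes above background, 23 were lower and 28 higher in PC9/gef (22.1% and 26.9%), beside 21.5% and 23.0% of all genes above background, and their median was 0.023. The 4 that lay in one of the 3 stretches (SEC13, SETMAR, SETD5 and PBRM1) were all lower, and the 100 elsewhere were split into 19 lower and 28 higher. Of those 100, POMGNT2 and ACTL6A also lie on chromosome 3 and were lower, and WWTR1, PLXNA1 and PLXND1 lie there and were higher.

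Semaphorin receptors and relatives, the partners of SEMA3F, had 11 genes above background, 4 lower and 4 higher. Over all genes above background 21.5% were lower and 23.0% higher. PLXNA2, a co-receptor, fell to 5.28, 4.99 and 5.37 in PC9/gef, against 6.94, 6.91 and 7.02 in PC9 (−1.74 ± 0.11, adjusted p = 0.00082, limma). NRP2, the neuropilin that binds SEMA3F, differed by −0.67 (adjusted p = 0.0019, limma), while NRP1 differed by 0.95 (adjusted p = 0.00055, limma). PLXNA4 was at background in PC9 and at least 2.11-fold higher in PC9/gef. PLXND1 and PLXNA1 were higher too, at 0.87 and 0.29 (adjusted p = 0.0038 and 0.022, limma). SEMA3C and PLXNB2 were lower, at −0.32 and −0.23 (adjusted p = 0.039 and 0.041, limma). Among the called plexins, PLXNA2 and PLXNB2 were thus lower in PC9/gef, and PLXNA1, PLXNA4 and PLXND1 were higher. Of the neuropilins, NRP2 was lower and NRP1 higher.

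The Hippo list, which contains the kinases and scaffolds around RASSF1 and LIMD1, had 7 of 16 genes higher and 3 lower. The shares over all genes above background were 23.0% higher and 21.5% lower. RASSF6 differed by 1.07, MOB1B by 0.78 and LATS2 by 0.72 (adjusted p = 0.039, 0.00042 and 0.0011, limma), and RASSF2 by −0.97 (adjusted p = 0.014, limma). LATS2 had 9.19, 9.09 and 9.10 in PC9/gef, against 8.46, 8.32 and 8.44 in PC9. The kinase LATS2 and its activator MOB1B were thus higher in PC9/gef. The RASSF1 relatives were mixed. RASSF6 was higher, RASSF2 was lower, and RASSF5 was lower too, at −0.18 (adjusted p = 0.031, limma). RASSF3, RASSF4 and RASSF8 were not called. RASSF6 was near the background level of 2.61 in PC9, with 2.44, 2.77 and 2.77 on the PC9 arrays. The paired effectors YAP1 and WWTR1 differed in opposite directions, by −0.51 and 0.59 (adjusted p = 0.0058 and 0.00024, limma). The hyaluronan list, beside HYAL2, had 2 of 7 lower and 3 higher, with the same shares over all genes. CEMIP, a hyaluronan-degrading protein, fell to 6.33, 6.24 and 6.32 in PC9/gef, against 8.37, 8.44 and 8.5 in PC9 (−2.14 ± 0.047, adjusted p = 7.9e-05, limma), and the hyaluronan receptor CD44 differed by 0.32.

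The remaining lists are set around NPRL2, SMARCC1, SETD2 and the unmeasured DAG1. Their counts stand beside 21.5% lower and 23.0% higher over all genes above background. Of 17 GATOR and mTORC1 genes, 2 were lower and 3 higher, with SEC13 at −0.85 and MIOS at 0.47. Of 16 SWI/SNF genes, 5 were lower and 4 higher, with ACTL6A and DPF1 at −0.43 and 0.43. Of 12 genes of lysine 36 methylation, 3 were lower and 2 higher, with SETMAR at −0.67. Of 11 dystroglycan glycosylation genes, 3 were lower and 3 higher, with POMGNT2 at −0.76 and DPM3 at 0.65.

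Markers of the cell type and of other cells stood beside these results. Of 12 epithelial and lung adenocarcinoma markers, NKX2-1, NAPSA and SFTPC were at background and the keratins, EPCAM and CDH1 were not, and the log2 of the summed level lay between 16.78 and 16.80 in PC9/gef, against 16.80 and 16.82 in PC9. At background were 6 of 8 fibroblast, 5 of 7 leukocyte and 5 of 7 endothelial markers, PTPRC, DCN, VWF and CDH5 among them. The log2 summed level of fibroblast markers lay between 8.54 and 8.65 in PC9/gef, against 8.02 and 8.36 in PC9. That of leukocyte markers lay between 8.03 and 8.06 in PC9/gef, against 8.84 and 8.99 in PC9, and that of endothelial markers between 6.85 and 7.04 in PC9/gef, against 8.98 and 9.02 in PC9. The single genes behind these sums were COL1A1 at 0.52, LYZ at −1.09, ITGAM at 1.16 and PECAM1 at −2.40, and their part in the 3p21 differences was not tested.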

How the data were processed

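RNA of PC9/gef and PC9 cells was hybridised to Affymetrix oligonucleotide arrays, 3 per line. The deposited values are log2 signals, which the authors had background-corrected, normalised and summarised per probe set. The methods name GC-RMA and GeneSpring GX, the submitters' processing notes name RMA, and versions are not given in the sources used here. Normalisation of this type gives every array the same spread of values, and it can compress small differences at dim probe sets. Values ran between 1.65 and 15.72 and were used as they stood. Raw scans were not used here.

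Of 54675 probe sets, 62 controls were left out, 41091 carried 1 gene by the supplied platform annotation, 1801 several and 11721 none. Gene order and start regions came from RefSeq tables of GRCh38.p14, used for the arrays as names and order only. The contrast of PC9/gef against PC9 was fitted with limma 3.58.1 (R 4.3.3) over all genes, with Benjamini-Hochberg adjustment at 0.05, after the script had been tested on simulated data. The p-values measure the spread between samples of 1 line each. Members and gene lists were chosen with earlier results of these data known. Array values are given for genes of the suppressor cluster and other genes of known role, the 10 lowest and 5 highest differences, and genes whose lines overlap, with the 5 lowest and highest of the unlisted genes between the ends and up to 4 called genes per partner list. The values of 1 partner list are not reported here on their own. Replicate numbers did not pair the samples, since same-numbered arrays had correlations of −0.0285, 0.0141 and 0.0417. Alternatives were quantile normalisation, median centring, trended robust moderation, a background filter, the mean over probe sets, exclusion of probe sets marked as shared between transcripts, a replicate block, a t-test and each array left out. The paper names the t-test for comparing means in general. For the arrays it took genes that changed more than 2-fold.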

Additional observations from a re-analysis of the deposited data

How the results depend on the processing

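Quantile normalisation and median centring left the counts and medians within 1.5 times or the replicate spread. The deposited values were already normalised, so centring shifted the arrays by 0 and quantile normalisation could change little. These 2 settings are therefore no check of the result. The median of the listed genes with a value stayed negative in every alternative run. The list was chosen on this contrast in the same arrays, so that sign is a description and not a check. The median was −0.41 when all probe sets of a gene were averaged and −0.47 without the probe sets marked _x_at or _s_at, whose probes can match several transcripts. Those 2 settings gave −0.34 and −0.42 for the unlisted genes between the ends. Averaging shifted the difference of 21 measured listed genes and left 33 about the same. Without the _x_at and _s_at probe sets 22 listed genes passed as lower, 11 partner genes were lower and 1819 of all genes were higher. Genes with only such probe sets had no value there, so the 22 and the median of −0.47 do not cover all 51 genes. Of the listed genes with a value in that setting, 27 stayed about the same, 8 shifted and 1 changed sign. LZTFL1 and NPRL2 were then read from probe sets at background (−0.0023 and −0.0016), and KIF9 turned to 0.058, also at background. DALRD3 (−0.30) and QRICH1 (−0.15) lost their calls there as well. LIMD1 was also read from a probe set at background in that setting (−0.0031). Over all genes, lower calls numbered 5181 with trended robust moderation. By a t-test they numbered 4093 after adjustment and 6358 before it. That test was run on the same values and is not exact at 3 arrays per line. Unlisted genes higher between the ends numbered 2 with the background filter (LTF and FBXW12) and 1 by that unadjusted test (FBXW12). With a replicate block, although the numbers did not pair the samples, 1770 of all genes and 13 partner genes were lower and 1 listed gene, FYCO1, was higher. Listed genes lower then numbered 30, with calls lost at PTPN23, NME6, P4HTM, WDR6, TRAIP, GNAI2 and HYAL2. Leaving out each array in turn gave 33 to 36 listed genes lower and 0 higher, medians of −0.62 to −0.57 for them and −0.41 to −0.39 for unlisted genes, of which 18 to 19 were lower and 0 to 1 higher (LTF, without PC9 replicate 2), 16 to 21 partner genes lower and 21 to 24 higher, and 2022 to 3135 of all genes lower and 2196 to 2477 higher. PTPN23, HYAL2, TRAIP, WDR6 and KLHL18 were the listed genes that lost their call in some of these. The cause of each shift was not tested, apart from the dimmer probe sets named.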
